A study of Mus musculus with 10 samples.

Results

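The genes described here are the serine/arginine-rich splicing factors (Srsf genes), the heterogeneous nuclear ribonucleoproteins (hnRNPs, Hnrnp genes) and the proteins of the spliceosomal small nuclear ribonucleoproteins (snRNPs, Snrp genes). They were chosen by name: every gene of the table whose symbol is Srsf with a number, or starts with Hnrnp or Snrp, and whose normalised read count reached 10 in at least 2 libraries. All 42 genes with such a symbol passed this filter, out of 16290 genes in the table and 15694 tested: 11 Srsf, 20 Hnrnp and 11 Snrp genes. The measurement was poly-A RNA-seq of mammary epithelial cells from FVB mice in 10 libraries: 3 of NIC-Prmt1, 3 of NIC-Carm1, 2 of NIC-Prmt6 and 2 of NIC. The NIC genotype is common to all 10 libraries, and the labels add the name of a protein arginine methyltransferase (PRMT) for the other groups, which the series' design text describes as overexpression. The RNA of each named gene is given below; in NIC-Prmt1 it was not higher than in NIC beyond the spread. NIC is not spelled out by the submitters; in mammary tumour work the name usually stands for a mouse with activated Neu (ErbB2) and Cre recombinase under the MMTV promoter. They give neither the age of the mice, nor the promoter of each transgene, nor how many animals went into a library. Cells came from mammary glands 3 and 4 and were enriched by digestion and brief spins, so other cell types of the gland can remain. The question asked by the comparisons is which of these genes differ in RNA level between the genotypes so labelled.

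SR proteins bind exonic enhancers through an RNA recognition motif and recruit the spliceosome through a tail rich in arginine and serine dipeptides, which SRPK and CLK kinases phosphorylate. hnRNPs coat nascent transcripts, often act against SR proteins at the same exon, and many carry arginine-glycine repeats that PRMT1 methylates asymmetrically. The Sm proteins form a ring of subunits (B, D1, D2, D3, E, F and G) around U1, U2, U4 and U5 small nuclear RNAs; PRMT5 dimethylates the B, D1 and D3 tails symmetrically before the SMN complex closes the ring, and CARM1 (PRMT4) methylates splicing factors that include SmB and U1-C. These marks act on the protein, whereas the values below are RNA levels per gene. Many SR and hnRNP genes also carry a poison exon whose inclusion sends the transcript to decay, and counts per gene do not separate such isoforms.

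The recovered read totals ran from 21589274 in NIC replicate 2 to 30260921 in NIC-Prmt6 replicate 2. NIC-Carm1 and NIC-Prmt6 held a pair of libraries closer to each other than any other pair: the chi-square of recovered reads over genes, divided by its degrees of freedom, was 2.65 for NIC-Carm1 replicates 2 and 3 and 2.41 for NIC-Prmt6 replicates 1 and 2, against 27.2 to 101 for the other pairs within a group. Values above 1 exceed sampling noise but do not show that the libraries of such a pair are independent samples. The labels list each library as a sample of its own, so each was kept as one. If the pairs are technical repeats, standard errors and intervals of the main fit can be too small. The counts of called members and of other splicing genes are also given with these pairs averaged into 1 sample each. Averaging leaves NIC-Prmt6 as 1 sample that is assumed to vary like the other groups. The labels do not say that replicates are separate animals, so p-values measure the spread between these samples, which may be technical. The genes named in the labels gave a mixed check. Prmt1 had normalised read counts of 2963, 2702 and 3258 in NIC-Prmt1, 2916, 2362 and 2516 in NIC-Carm1, 2669.5 and 2720.5 in NIC-Prmt6, against 2675 and 3077 in NIC. NIC-Prmt1 overlapped NIC (log2 fold change 0.05 ± 0.12, adjusted p = 0.784 by limma). Carm1 had 2303, 2025 and 2136 in NIC-Prmt1, 2479, 2324 and 2146 in NIC-Carm1, 2295 and 2432 in NIC-Prmt6, against 1556 and 1567 in NIC. It rose in NIC-Carm1 (0.57 ± 0.09, adjusted p = 0.00490) but also in NIC-Prmt1 (0.46 ± 0.09, adjusted p = 0.00639) and NIC-Prmt6 (0.60 ± 0.10, adjusted p = 0.00204), and the 3 groups overlapped. With averaging it was not called in NIC-Carm1. Prmt6 had 351, 272 and 355 in NIC-Prmt1, 329, 224 and 239 in NIC-Carm1, 873 and 909 in NIC-Prmt6, against 387 and 451 in NIC, and rose in NIC-Prmt6 (1.09 ± 0.20, adjusted p = 0.00321), without overlap with any other group. Prmt6 was also called lower in NIC-Carm1 than in NIC, but not with averaging. The group names below are those of the labels.

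Markers of the labelled cell type were present in every library, and several marker lists differed between the groups. In CPM, recovered reads scaled to the same total in each library, the 10 luminal epithelial markers (Epcam, Krt8, Krt18 and others) summed to 6472 to 9081 CPM in NIC-Prmt1, 6021 to 7169.8 in NIC-Carm1 and 6047 to 6067 in NIC-Prmt6, against 9410.0 to 11606 in NIC. In NIC-Prmt1, NIC-Carm1 and NIC-Prmt6 4, 5 and 6 of the 10 fell, and 2 rose in NIC-Prmt1 (with averaging 3, 0 and 3 fell and none rose). The 10 fibroblast markers summed to 5423 to 7101 CPM in NIC-Prmt1, 3582 to 4033 in NIC-Carm1 and 12626 to 12647 in NIC-Prmt6, against 3135 to 3880.3 in NIC. The 10 endothelial markers summed to 2543 to 3623 CPM in NIC-Prmt1, 1360.1 to 1724 in NIC-Carm1 and 3272 to 3283 in NIC-Prmt6, against 1209 to 1488 in NIC. The 10 basal and myoepithelial markers summed to 3954 to 6919 CPM in NIC-Prmt1, 2025 to 2232 in NIC-Carm1 and 2562 to 2566 in NIC-Prmt6, against 1804 to 2110.0 in NIC, and the 20 cell cycle genes to 485 to 718 CPM in NIC-Prmt1, 928 to 1057 in NIC-Carm1 and 553 to 557 in NIC-Prmt6, against 683 to 724 in NIC. No marker of these 5 lists was at 0 in any library. The 10 macrophage markers summed to 479 to 771 CPM in NIC-Prmt1, 932 to 952 in NIC-Carm1 and 994 to 1014 in NIC-Prmt6, against 542 to 597 in NIC. The 9 adipocyte markers summed to 838 to 1185 CPM in NIC-Prmt1, 567 to 591 in NIC-Carm1 and 1352 to 1384 in NIC-Prmt6, against 486 to 546 in NIC. A pair of libraries stood apart in single lists: NIC-Carm1 replicate 1 in 6 milk genes (1848 to 3930.3 CPM in NIC-Prmt1, 5879 to 38857 in NIC-Carm1 and 1156 to 1187 in NIC-Prmt6, against 5662 to 5743 in NIC) and NIC-Prmt1 replicate 1 in 9 skin keratinocyte genes (20.98 to 1048 CPM in NIC-Prmt1, 22.7 to 32.4 in NIC-Carm1 and 24.1 to 25.3 in NIC-Prmt6, against 30.8 to 37.1 in NIC), of which Krt77, Krt25, Lor, Krtdap and Dsg1a were at 0 in some library. In RNA from mixed cells, fewer cells of a type and less RNA per cell cannot be told apart, and the part of these shifts in the results below was not tested.

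The members differ widely in how uniquely they can be counted. Sequence shared with other genes is common: 50.2% of the 31-base words of the longest coding Hnrnpf transcript, 48.3% for Hnrnpa1, 39.6% for Hnrnpk, 37.6% for Srsf3, 36.0% for Srsf5, 28.9% for Hnrnpa3, 26.8% for Snrpe and 20.8% for Hnrnpc also occur in transcripts of other annotated genes (GENCODE M21, same strand). Counted on either strand, the share was 92.1% for Snrpf, 70.6% for Hnrnpf, 66.5% for Srsf4 and 36.9% for Srsf2, while Srsf11, Hnrnpa0 and Hnrnpll share none on either strand. Exons also lie under other genes: 85.4% of Snrpf exon bases fall within Ccdc38 or 4933408J17Rik, 43.0% of Srsf4 and 25.3% of Srsf2 (within Mettl23 and Mfsd11) are likewise covered. The library kit does not mark strand, so reads of such overlaps cannot be told apart, and how the authors treated reads that map to several places is not given in the sources used here.

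Per kilobase of annotated exon, averaged over the 10 libraries, the levels spanned a wide range. The length was that of all annotated exons of a gene together, so the order also depends on the annotation. The part of exon length and of shared reads in these levels was not tested. Hnrnpf, which binds runs of guanines, stood highest at 3469.7 normalised reads per kb, followed by Hnrnpab at 2442, the nuclear speckle SR protein gene Srsf2 at 2386, the core Sm gene Snrpb at 2232 and the poly-C binding Hnrnpk at 2015. At the low end stood Hnrnpa1 at 77.2, whose transcript is shared with 11 other annotated genes over at least 100 such words, and Srsf12 at 5.95. Srsf12 was the only member near the filter, with 12.9 to 25.8 normalised reads per library, and the next lowest, Hnrnpa1, had 185 to 323. Over the 10 libraries the highest value was 2.08 times the lowest for Hnrnpc, 2.003 for Srsf12, 1.88 for Srsf2 and 1.87 for Srsf3. The flattest were Hnrnpm and Hnrnpa2b1, at 1.15 and 1.15 times. Within groups the median SD of a member on the log2 scale was 0.112 in NIC-Prmt1, 0.0766 in NIC-Carm1, 0.0177 in NIC-Prmt6 and 0.0815 in NIC; the small value of NIC-Prmt6 goes with its nearly identical libraries.

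Against NIC, each PRMT group had a minority of these genes changed, and most of those changed were lower. In NIC-Prmt1, 3 members rose and 6 fell, or 21.4% of the 42, beside 29.6% of all genes tested (15.2% higher and 14.4% lower). In NIC-Carm1, 1 rose and 10 fell (26.2%), beside 16.0% of all genes (6.65% higher and 9.36% lower). In NIC-Prmt6, 3 rose and 7 fell (23.8%), beside 36.8% of all genes (19.0% higher and 17.8% lower). A gene was counted as changed at a Benjamini-Hochberg adjusted p under 0.05 in limma, adjusted over all genes tested. The shares in NIC-Prmt1 and NIC-Prmt6 were thus below those of all genes, and the share in NIC-Carm1 above it. That gap in NIC-Carm1 nearly closed under 1 alternative and turned round under another: 2.38% of members beside 2.17% of all genes with the nearly identical libraries averaged, and 2.38% of members beside 4.52% of all genes without NIC replicate 1. Whether the members differ from other genes was not tested. Changes were small: the median size of the log2 fold change over the 42 members was 0.15 in NIC-Prmt1, 0.26 in NIC-Carm1 and 0.18 in NIC-Prmt6, beside 0.36, 0.28 and 0.43 over all genes. The 3 comparisons share the same 2 NIC libraries.

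Only Hnrnpc and Snrpf changed in all 3 comparisons with NIC, a tally not made over all genes. Among the members, 8 changed in 2 of them, 8 in 1 and 24 in none. With the nearly identical libraries averaged, the counts were 4 in NIC-Prmt1 (2 higher and 2 lower), 1 in NIC-Carm1 (lower) and 2 in NIC-Prmt6 (1 higher and 1 lower), so most calls rest on treating those pairs as separate samples. Calls over the whole table fell as well, to 2601 genes (16.6%) in NIC-Prmt1, 340 (2.17%) in NIC-Carm1 and 1664 (10.6%) in NIC-Prmt6, beside 9.52%, 2.38% and 4.76% of the members. With upper-quartile rescaling NIC-Prmt1 had 4 higher and 4 lower. NIC replicate 1 mattered to every comparison: without it the counts were 4, 1 and 5 members, beside 2585, 709 and 4640 of all genes. In NIC-Carm1 the count was also 5 (11.9%) without NIC-Carm1 replicate 2 or 3, beside 6.70% and 6.86% of all genes. Leaving out either NIC-Prmt6 library leaves 1 sample in that group. The NIC-Carm1 and NIC-Prmt6 counts were lower there too.

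**Figure D1:**
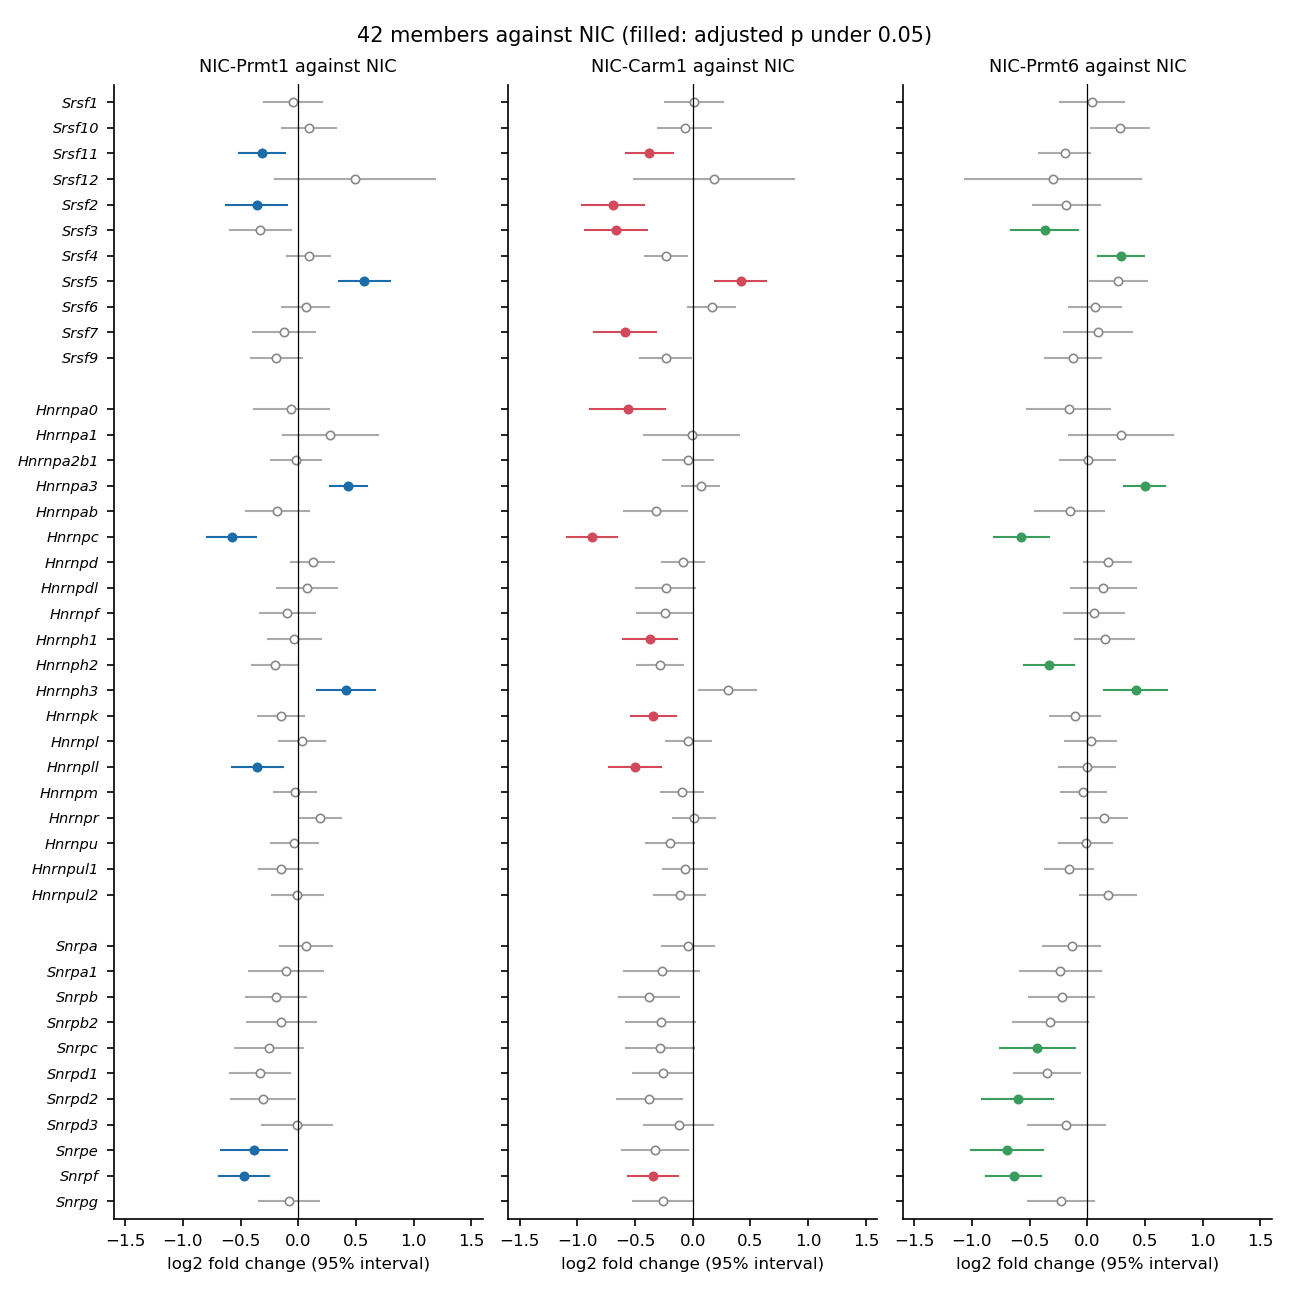
Log2 fold change (horizontal axis) of each of the 42 members against NIC in NIC-Prmt1, NIC-Carm1 and NIC-Prmt6, with its 95% interval from limma; filled dots have an adjusted p under 0.05. Most dots lie between -0.5 and 0.5, and Hnrnpc and Snrpf are filled on the low side in every panel.

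Among the SR protein genes, Srsf5 rose and Srsf2, Srsf3, Srsf7 and Srsf11 fell in at least 1 PRMT group. Srsf5 (SRp40; chr12:80945504-80950507, plus strand, GRCm38), a small SR protein that promotes exon inclusion, had normalised read counts of 9157, 7646 and 7612 in NIC-Prmt1, 7158, 7116 and 7512 in NIC-Carm1, 6527 and 6583 in NIC-Prmt6, against 5644 and 5257 in NIC, in the order of the replicate numbers. The 4 groups did not overlap, and both NIC libraries were lowest. The log2 fold change against NIC was 0.57 ± 0.10 (adjusted p = 0.00372) in NIC-Prmt1, 0.41 ± 0.10 (adjusted p = 0.0230) in NIC-Carm1 and 0.27 ± 0.11 (adjusted p = 0.0828) in NIC-Prmt6, where it did not pass. The NIC-Prmt1 call held under each of the 21 alternatives, with adjusted p up to 0.0331. The NIC-Carm1 call ended with averaging (0.150) and without any 1 library of NIC or NIC-Prmt6 or NIC-Carm1 replicate 2 or 3, with adjusted p up to 0.150.

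Srsf3 (SRp20; chr17:29032628-29043373, plus strand), the smallest SR protein, which also serves in mRNA export, had 7735, 6719 and 7124 in NIC-Prmt1, 5691, 5549 and 5833 in NIC-Carm1, 6941 and 7003 in NIC-Prmt6, against 10376 and 7833 in NIC. NIC replicate 1 stood well above every other library, all 8 PRMT libraries lay below both NIC libraries, and NIC-Carm1 was lowest without overlap. Srsf3 fell in NIC-Carm1, with a log2 fold change of -0.66 ± 0.12 (adjusted p = 0.00700), and in NIC-Prmt6, with -0.37 ± 0.13 (adjusted p = 0.0489); its value in NIC-Prmt1 was -0.33 ± 0.12 (adjusted p = 0.0630). The ratio of the Srsf5 count to the Srsf3 count, a pair chosen after their values were seen, was 1.184, 1.138 and 1.068 in NIC-Prmt1, 1.258, 1.282 and 1.288 in NIC-Carm1 and 0.940 and 0.940 in NIC-Prmt6, against 0.544 and 0.671 in NIC. This ratio is within a library and does not depend on the scaling between libraries, and it is not a ratio of levels per length. Neither Srsf3 call passed without NIC replicate 1 or with averaging; adjusted p reached 0.0737 in NIC-Carm1 and 0.314 in NIC-Prmt6 over the alternatives, and the NIC-Prmt6 call also ended without NIC-Prmt1 replicate 2 or 3, NIC-Carm1 replicate 2 or 3, or either NIC-Prmt6 library.

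Srsf2 (SC35; chr11:116849901-116853094, minus strand), the SR protein that marks nuclear speckles, had 7731, 6188 and 6826 in NIC-Prmt1, 5611, 5557 and 5257 in NIC-Carm1, 7865 and 7738 in NIC-Prmt6, against 9862 and 7935 in NIC. The NIC libraries were highest, NIC-Carm1 was lowest, and NIC-Prmt1 and NIC-Prmt6 lay between them. Srsf2 fell in NIC-Carm1 with a log2 fold change of -0.69 ± 0.12 (adjusted p = 0.00605) and in NIC-Prmt1 with -0.36 ± 0.12 (adjusted p = 0.0459). Srsf7 (9G8; chr17:80200080-80207307, minus strand), which has a zinc knuckle beside its RNA recognition motif, had 4597, 3704 and 3807 in NIC-Prmt1, 2821, 3062 and 2865 in NIC-Carm1, 4716 and 4612 in NIC-Prmt6, against 4890.1 and 3913 in NIC. All 3 NIC-Carm1 libraries were lower than every other library. NIC-Prmt1 replicates 2 and 3 lay just below NIC, and NIC-Prmt6 lay within the NIC range. The log2 fold change was -0.59 ± 0.12 (adjusted p = 0.0126) in NIC-Carm1, -0.12 ± 0.12 (adjusted p = 0.467) in NIC-Prmt1 and 0.09 ± 0.13 (adjusted p = 0.619) in NIC-Prmt6. The calls of both genes in NIC-Carm1 ended without NIC replicate 1 and with averaging (adjusted p = 0.0677 and 0.0916), and that of Srsf2 in NIC-Prmt1 ended without any 1 of 7 libraries (NIC replicate 1, NIC-Prmt1 replicate 2 or 3, NIC-Carm1 replicate 2 or 3, NIC-Prmt6 replicate 1 or 2), with adjusted p up to 0.302.

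Srsf11 (p54), an SR protein that binds U2AF, had 3993, 3841 and 3603 in NIC-Prmt1, 3858, 3398 and 3687 in NIC-Carm1, 4100.3 and 4145 in NIC-Prmt6, against 4943 and 4517 in NIC. Both NIC libraries lay above the 8 PRMT libraries. The log2 fold change was -0.31 ± 0.09 (adjusted p = 0.0279) in NIC-Prmt1, -0.38 ± 0.09 (adjusted p = 0.0221) in NIC-Carm1 and -0.20 ± 0.10 (adjusted p = 0.143) in NIC-Prmt6, where it did not pass. Srsf4 (SRp75), an SR protein with a long arginine-serine tail, went the other way in NIC-Prmt6, where it rose by 0.29 ± 0.09 on the log2 scale (adjusted p = 0.0299). Its counts were 2496, 2292 and 2404 in NIC-Prmt1, 2049.9, 1859 and 1847 in NIC-Carm1, 2746 and 2763 in NIC-Prmt6, against 2268 and 2232 in NIC. NIC-Prmt6 lay above NIC and NIC-Carm1 below it, without overlap. The calls of Srsf11 ended with averaging (adjusted p = 0.0860 in NIC-Prmt1 and 0.155 in NIC-Carm1) and without NIC replicate 1 or 2 or NIC-Prmt1 replicate 3 or NIC-Prmt6 replicate 1 or 2 in NIC-Prmt1, and without NIC replicate 1 or NIC-Carm1 replicate 2 or 3 in NIC-Carm1. The call of Srsf4 ended with averaging (0.201) and without NIC replicate 1 or 2 or NIC-Prmt6 replicate 1 or 2. The other 5 Srsf genes did not pass against NIC: Srsf1, the prototype SR protein (ASF/SF2), Srsf6, Srsf9, Srsf10 and Srsf12 had adjusted p of 0.0746 or more.

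**Figure D2:**
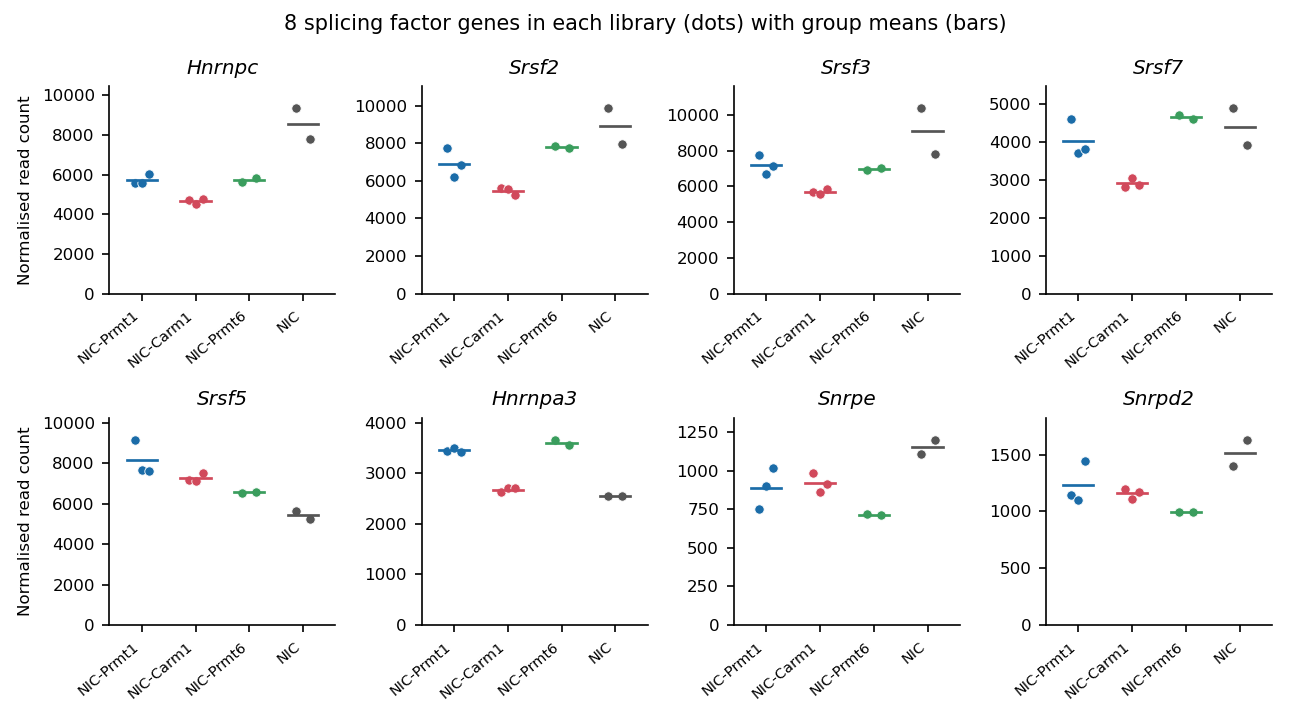
Normalised read count (vertical axis, from 0) of 8 genes in each library (dots) with the group mean (bar), for NIC-Prmt1, NIC-Carm1, NIC-Prmt6 and NIC from left to right. Hnrnpc, Srsf3 and Snrpe are highest in the 2 NIC libraries, Srsf5 is lowest there, Srsf7 is lowest in NIC-Carm1, and Hnrnpa3 is high in NIC-Prmt1 and NIC-Prmt6.

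Hnrnpc was the member with the largest fall against NIC in NIC-Prmt1 and NIC-Carm1. hnRNP C (chr14:52073377-52104028, minus strand) forms tetramers that bind uridine tracts of nascent transcripts and keeps U2AF from cryptic splice sites. It had 5555, 5568 and 6021 in NIC-Prmt1, 4699, 4495 and 4759 in NIC-Carm1, 5643 and 5833 in NIC-Prmt6, against 9345 and 7775 in NIC. All 8 PRMT libraries lay below both NIC libraries, with NIC-Carm1 lowest without overlap and NIC-Prmt1 and NIC-Prmt6 overlapping. The means were 5715 ± 265 in NIC-Prmt1 (SD, n = 3), 4651 ± 139 in NIC-Carm1 (SD, n = 3) and 5738 ± 134 in NIC-Prmt6 (SD, n = 2), against 8559.8 ± 1109.9 in NIC (SD, n = 2). The log2 fold change was -0.58 ± 0.10 (adjusted p = 0.00304) in NIC-Prmt1, -0.87 ± 0.10 (adjusted p = 8.75e-04) in NIC-Carm1 and -0.57 ± 0.11 (adjusted p = 0.00311) in NIC-Prmt6. The calls in NIC-Prmt1 and NIC-Carm1 held under each of the 21 alternatives, and the NIC-Prmt6 call ended only with averaging (adjusted p = 0.0595).

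Hnrnpa3, a paralog of Hnrnpa1 and Hnrnpa2b1, showed another pattern (chr2:75659261-75669407, plus strand). It had 3433, 3499 and 3424 in NIC-Prmt1, 2629, 2702 and 2707 in NIC-Carm1, 3664 and 3552 in NIC-Prmt6, against 2559 and 2552 in NIC. NIC-Prmt6 and NIC-Prmt1 lay well above NIC, while NIC-Carm1 stood just above it. Hnrnpa3 rose in NIC-Prmt1, with a log2 fold change of 0.43 ± 0.07 (adjusted p = 0.00295), and in NIC-Prmt6, with 0.50 ± 0.08 (adjusted p = 0.00147), and both calls held under each of the 21 alternatives. In NIC-Carm1 the log2 fold change was 0.07 ± 0.07 (adjusted p = 0.559). The longest coding Hnrnpa3 transcript shares at least 100 of its 31-base words with each of 37 other annotated genes. No alternative changed how reads of shared sequence were counted. The closely related Hnrnpa2b1, one of the 3 most abundant Hnrnp genes, had 11751, 11852 and 11428 in NIC-Prmt1, 10757, 11319.9 and 12424 in NIC-Carm1, 12231 and 11513 in NIC-Prmt6, against 11370.5 and 12333 in NIC. Its groups overlapped, and its log2 fold change against NIC had 95% intervals of -0.24 to 0.20 in NIC-Prmt1, -0.26 to 0.17 in NIC-Carm1 and -0.23 to 0.24 in NIC-Prmt6.

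The H/F subfamily binds runs of guanines and its members gave different patterns. Hnrnph3 had 1089.5, 945 and 918 in NIC-Prmt1, 843, 951 and 934 in NIC-Carm1, 967 and 1000.3 in NIC-Prmt6, against 687 and 788 in NIC. All 8 PRMT libraries lay above NIC, and Hnrnph3 rose in NIC-Prmt1 (log2 fold change 0.41 ± 0.11, adjusted p = 0.0210) and NIC-Prmt6 (0.42 ± 0.12, adjusted p = 0.0233), with 0.30 ± 0.11 (adjusted p = 0.0927) in NIC-Carm1. Hnrnph2, on the X chromosome, had 2127, 2148 and 2098 in NIC-Prmt1, 1916, 1994 and 2118 in NIC-Carm1, 1902 and 1978 in NIC-Prmt6, against 2632 and 2264 in NIC, so that all 8 PRMT libraries lay below NIC; it fell in NIC-Prmt6 (-0.33 ± 0.10, adjusted p = 0.0249). Hnrnph1 had 11118, 10105 and 9725 in NIC-Prmt1, 8374, 7728 and 8355 in NIC-Carm1, 11751 and 11623 in NIC-Prmt6, against 11422 and 9725 in NIC. Its NIC-Carm1 libraries were the lowest without overlap, and it fell there (-0.37 ± 0.10, adjusted p = 0.0378). Hnrnpf, among the 3 most abundant Hnrnp genes, had values of -0.09 ± 0.11 in NIC-Prmt1, -0.24 ± 0.11 in NIC-Carm1 and 0.06 ± 0.12 in NIC-Prmt6 on the log2 scale, none of which passed (adjusted p of 0.152 or more). None of these H calls held without NIC replicate 1 or with averaging, where adjusted p was 0.0677 for Hnrnph3 in NIC-Prmt1, 0.159 for it in NIC-Prmt6, 0.172 for Hnrnph2 and 0.202 for Hnrnph1. Other libraries whose removal ended a call were NIC-Prmt1 replicate 1 for Hnrnph3 in NIC-Prmt1, NIC-Prmt6 replicate 1 or 2 for Hnrnph3 and Hnrnph2 in NIC-Prmt6, and NIC-Carm1 replicate 2 or 3 and NIC-Prmt6 replicate 1 or 2 for Hnrnph1.

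Of the remaining hnRNP genes, Hnrnpll, Hnrnpa0 and Hnrnpk fell in NIC-Carm1. Hnrnpll, known for exon skipping of Ptprc (CD45) in lymphocytes, had 1587, 1370.3 and 1329 in NIC-Prmt1, 1379.8, 1224 and 1259 in NIC-Carm1, 1816 and 1819 in NIC-Prmt6, against 1865 and 1777 in NIC. NIC-Carm1 and NIC-Prmt1 lay below NIC, and NIC-Prmt6 lay within the NIC range. The log2 fold change was -0.50 ± 0.10 (adjusted p = 0.0108) in NIC-Carm1, -0.35 ± 0.10 (adjusted p = 0.0255) in NIC-Prmt1 and -0.00 ± 0.11 (adjusted p = 0.988) in NIC-Prmt6. The summed B and T lymphocyte markers were 9.62 to 66.9 CPM in NIC-Prmt1, 37.0 to 46.8 in NIC-Carm1 and 12.6 to 13.4 in NIC-Prmt6, against 12.2 to 64.1 in NIC, with Ms4a1 at 0 in some libraries; their part in the Hnrnpll values was not tested. Hnrnpa0, which binds AU-rich elements, had 4456, 3126 and 4279 in NIC-Prmt1, 2949, 2835 and 2490.4 in NIC-Carm1, 3574 and 3697 in NIC-Prmt6, against 4265 and 3885 in NIC, with a log2 fold change of -0.56 ± 0.15 (adjusted p = 0.0291) in NIC-Carm1. NIC-Carm1 was lowest without overlap, and the NIC-Prmt1 libraries spread to both sides of NIC. Hnrnpk, a KH-domain protein that binds poly-C and is the most abundant member by total count, had 13109, 12778 and 13580.3 in NIC-Prmt1, 11926, 11185 and 11432 in NIC-Carm1, 13590.4 and 13489 in NIC-Prmt6, against 15048 and 14130.1 in NIC. Both NIC libraries were the highest, and the log2 fold change was -0.34 ± 0.09 (adjusted p = 0.0286) in NIC-Carm1, -0.15 ± 0.09 (adjusted p = 0.224) in NIC-Prmt1 and -0.11 ± 0.10 (adjusted p = 0.415) in NIC-Prmt6. With averaging no NIC-Carm1 call of these 3 passed (adjusted p = 0.105, 0.149 and 0.207), nor without NIC replicate 1; those of Hnrnpa0 and Hnrnpk also ended without NIC replicate 2, NIC-Carm1 replicate 2 or 3, or either NIC-Prmt6 library. Hnrnpll in NIC-Prmt1 had an adjusted p of 0.0795 with averaging, and its call also ended without NIC replicate 1 or 2 or NIC-Prmt1 replicate 2 or 3.

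Every Snrp gene that changed against NIC was lower. 2 of the 11 fell in NIC-Prmt1 (Snrpf and Snrpe), 1 in NIC-Carm1 (Snrpf) and 4 in NIC-Prmt6 (Snrpe, Snrpf, Snrpd2 and Snrpc). These were 18.2%, 9.09% and 36.4% of the family, beside 29.6%, 16.0% and 36.8% of all genes. In none of the 3 comparisons did the family's share exceed that of all genes. With averaging 1, 0 and 1 were called (Snrpf each time). Fitted log2 fold changes were below 0 for 10, 11 and 11 of the 11 genes in NIC-Prmt1, NIC-Carm1 and NIC-Prmt6; over the alternatives, rescalings included, these counts ran from 8 to 11, from 10 to 11 and at 11. The median over the family was -0.20 in NIC-Prmt1, -0.28 in NIC-Carm1 and -0.32 in NIC-Prmt6, beside medians between -0.01 and 0.00 over all genes. Summed over the family the level was 498, 490.4 and 565 CPM in NIC-Prmt1, 507, 488 and 505 in NIC-Carm1 and 460.1 and 464 in NIC-Prmt6, against 521 and 559 in NIC. On the CPM scale, which is not that of the calls, NIC-Prmt1 replicate 3 lay above both NIC libraries in this sum, and NIC-Prmt6 lay lowest.

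Snrpf and Snrpe encode the F and E subunits, which enter the Sm ring together with G as a trimer. Snrpf (chr10:93583029-93589706, minus strand) had 607, 591 and 636 in NIC-Prmt1, 695, 655 and 645 in NIC-Carm1, 553 and 533 in NIC-Prmt6, against 801 and 892 in NIC. The 4 groups did not overlap, with NIC-Prmt6 lowest and NIC highest, and the log2 fold change was -0.47 ± 0.10 (adjusted p = 0.00748) in NIC-Prmt1, -0.35 ± 0.10 (adjusted p = 0.0387) in NIC-Carm1 and -0.64 ± 0.11 (adjusted p = 0.00191) in NIC-Prmt6. The NIC-Prmt6 call held under every alternative, that in NIC-Prmt1 ended only without NIC replicate 2 (adjusted p up to 0.0587), and that in NIC-Carm1 ended with averaging (0.214) and without NIC replicate 1 or 2 or NIC-Carm1 replicate 2 or 3 or NIC-Prmt6 replicate 1 or 2. Snrpe (chr1:133603871-133610291, minus strand) had 752, 900.1 and 1016 in NIC-Prmt1, 984, 863 and 915 in NIC-Carm1, 716 and 710.4 in NIC-Prmt6, against 1109 and 1200.0 in NIC. All 8 PRMT libraries lay below NIC, and the log2 fold change was -0.69 ± 0.14 (adjusted p = 0.00459) in NIC-Prmt6, -0.39 ± 0.13 (adjusted p = 0.0453) in NIC-Prmt1 and -0.33 ± 0.13 (adjusted p = 0.110) in NIC-Carm1. With averaging Snrpe had adjusted p of 0.0626 in NIC-Prmt6 and 0.108 in NIC-Prmt1, and the NIC-Prmt1 call also ended without either NIC library, NIC-Prmt1 replicate 1 or 2, NIC-Carm1 replicate 2 or 3, or either NIC-Prmt6 library. Snrpg, the third subunit of the trimer, had 890.1, 844 and 1072 in NIC-Prmt1, 830.1, 796 and 841 in NIC-Carm1, 833 and 845 in NIC-Prmt6, against 923 and 1048 in NIC, with log2 fold changes of -0.08 ± 0.12, -0.26 ± 0.12 and -0.23 ± 0.13 in NIC-Prmt1, NIC-Carm1 and NIC-Prmt6 that did not pass.

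Snrpd2, whose product pairs with D1 early in ring assembly, had 1147, 1101 and 1446 in NIC-Prmt1, 1201, 1112 and 1175 in NIC-Carm1, 996 and 993 in NIC-Prmt6, against 1398 and 1632 in NIC. NIC-Prmt6 was lowest, and NIC-Prmt1 replicate 3 overlapped NIC. The log2 fold change was -0.60 ± 0.14 (adjusted p = 0.00799) in NIC-Prmt6, -0.30 ± 0.13 (adjusted p = 0.0918) in NIC-Prmt1 and -0.38 ± 0.13 (adjusted p = 0.0683) in NIC-Carm1. Snrpc, the U1-C protein at the 5′ splice site, had 754, 802 and 1042 in NIC-Prmt1, 891, 823 and 804 in NIC-Carm1, 746 and 765 in NIC-Prmt6, against 1001 and 1043 in NIC, and fell in NIC-Prmt6 (-0.43 ± 0.15, adjusted p = 0.0406). Snrpb, the core Sm gene with the highest count in the family, had 4360.2, 3957 and 5103 in NIC-Prmt1, 4280.1, 3665 and 3829 in NIC-Carm1, 4375 and 4347 in NIC-Prmt6, against 4919 and 5272 in NIC. Its log2 fold change did not pass in any comparison with NIC: -0.20 ± 0.12 (adjusted p = 0.225) in NIC-Prmt1, -0.38 ± 0.12 (adjusted p = 0.0515) in NIC-Carm1 and -0.22 ± 0.13 (adjusted p = 0.192) in NIC-Prmt6. Snrpa, the U1-A protein, had 1435, 1459 and 1447 in NIC-Prmt1, 1239, 1405 and 1388 in NIC-Carm1, 1234 and 1279.8 in NIC-Prmt6, against 1259.6 and 1513 in NIC, with overlapping groups. The calls of Snrpd2 and Snrpc in NIC-Prmt6 ended with averaging (adjusted p = 0.0853 and 0.202) and without NIC replicate 2 or either NIC-Prmt6 library; that of Snrpc also ended without NIC replicate 1 or NIC-Carm1 replicate 2 or 3.

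**Figure D3:**
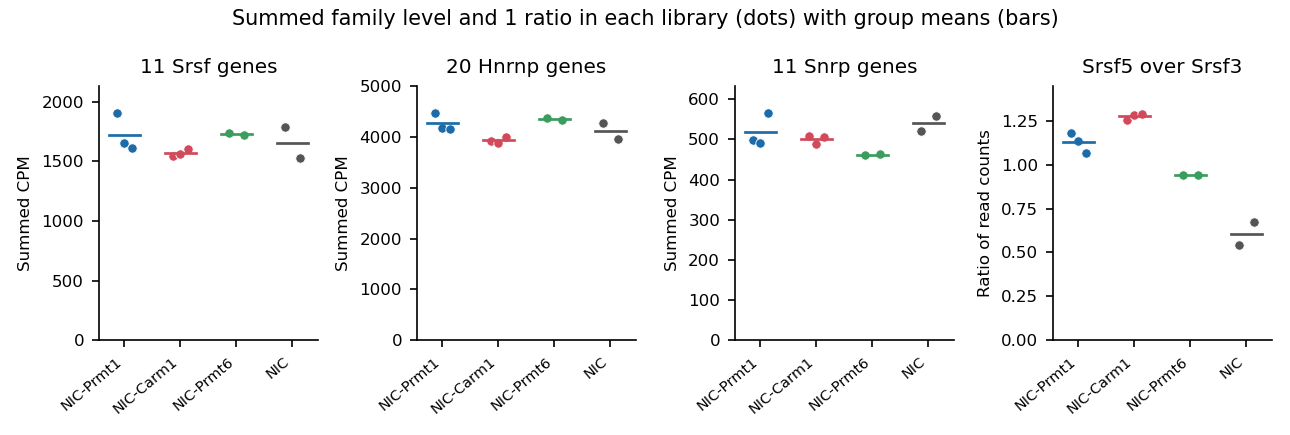
Summed CPM (recovered reads scaled to a common library total) over the 11 Srsf, 20 Hnrnp and 11 Snrp genes in each library (dots, with the group mean as a bar, axis from 0), and at the right the ratio of the Srsf5 to the Srsf3 normalised read count. In CPM, which is not the scale of the calls, the Srsf sums of every PRMT group reach into the range of NIC. The ratio is above 0.9 in all 8 PRMT libraries and below 0.7 in the 2 NIC libraries.

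Sums over the Srsf and Hnrnp genes were taken in CPM, a different scale from the size-factor counts behind the calls above. NIC replicate 1 had 29235457 reads and a size factor of 1.058, and NIC-Carm1 replicate 2 had 29225498 reads and one of 1.216. At such totals NIC-Carm1 replicate 2 lies higher beside NIC in CPM than in normalised read counts. The sums and the calls are therefore not directly comparable. The Srsf total, over 11 genes, was 1905, 1658 and 1613 CPM in NIC-Prmt1, 1543, 1565 and 1608 in NIC-Carm1 and 1737 and 1721 in NIC-Prmt6, against 1787 and 1528 in NIC. The Hnrnp total, over 20 genes, was 4469, 4168 and 4162 CPM in NIC-Prmt1, 3917, 3891 and 4006 in NIC-Carm1 and 4375 and 4327 in NIC-Prmt6, against 4273 and 3967 in NIC. In CPM, both sums overlapped NIC in NIC-Prmt1 and NIC-Carm1. The mean of NIC-Prmt6 in CPM differed from that of NIC by less than the gap between the 2 NIC libraries. Overlap of the sums on the scale of normalised read counts was not tested.

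Between the PRMT groups, most of the called members were lower in NIC-Carm1. In NIC-Prmt1 against NIC-Carm1, 9 members were higher and none lower (21.4%), beside 26.8% of all genes tested (14.9% higher and 11.8% lower). In NIC-Carm1 against NIC-Prmt6, 2 were higher and 12 lower (33.3%), beside 39.2% of all genes (18.4% higher and 20.9% lower). In NIC-Prmt1 against NIC-Prmt6 limma called 0 of 42, beside 7.49% of all genes (2.54% higher and 4.94% lower); 6 members had an unadjusted p under 0.05, edgeR called 0 and DESeq2 called 2 (1 higher and 1 lower). These 3 comparisons also share libraries with each other. With the nearly identical libraries averaged, limma called 0 members in all 3, with 7, 6 and 0 at an unadjusted p under 0.05 in NIC-Prmt1 against NIC-Carm1, NIC-Carm1 against NIC-Prmt6 and NIC-Prmt1 against NIC-Prmt6. Over all genes the averaged counts were 1355 (8.63%), 1262 (8.04%) and 21 (0.134%) in the same order. Single libraries moved the counts too. NIC-Prmt1 against NIC-Carm1 had 4 (9.52%) without NIC-Prmt1 replicate 1, NIC-Prmt1 replicate 3 or NIC-Carm1 replicate 2. The shares of all genes were then 17.0%, 18.5% and 17.2%. Without NIC-Carm1 replicate 3 it had 2 (4.76%), beside 16.7% of all genes. Leaving out either NIC-Prmt6 library leaves 1 sample in that group, and the count was lower there too. NIC-Carm1 against NIC-Prmt6 had 6 (14.3%) without NIC-Carm1 replicate 2 or 3, beside 29.9% and 29.8% of all genes. Its count was also lower without either NIC-Prmt6 library. NIC-Prmt1 against NIC-Prmt6 had 2 (4.76%) without NIC-Prmt1 replicate 1 and 1 (2.38%) without NIC-Carm1 replicate 1. The shares of all genes were then 14.3% and 12.6%.

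The SR and hnRNP genes called in these comparisons were all lower in NIC-Carm1. In NIC-Prmt1 against NIC-Carm1 the largest differences were in Hnrnpa0 (0.51 ± 0.13, adjusted p = 0.0195), Srsf7 (0.46 ± 0.11, adjusted p = 0.0132), Hnrnpa3 (0.37 ± 0.06, adjusted p = 0.00439) and Hnrnph1 (0.34 ± 0.09, adjusted p = 0.0240), as log2 fold changes. Srsf2, Srsf3, Srsf4, Hnrnpdl and Hnrnpc made up the other 5, with log2 fold changes between 0.30 and 0.34. In NIC-Carm1 against NIC-Prmt6 the largest falls were in Srsf7 (-0.68 ± 0.12, adjusted p = 0.00242), Srsf4 (-0.52 ± 0.08, adjusted p = 0.00130), Hnrnph1 (-0.52 ± 0.10, adjusted p = 0.00403) and Srsf2 (-0.51 ± 0.12, adjusted p = 0.00856). The other 8 were Hnrnpll, Hnrnpa3, Hnrnpdl, Srsf10, Hnrnpc, Hnrnpf, Hnrnpul2 and Hnrnpd, between -0.50 and -0.26. The direction was the opposite for 2 Sm genes: Snrpe (0.37 ± 0.13, adjusted p = 0.0445) and Snrpf (0.29 ± 0.10, adjusted p = 0.0388) were higher in NIC-Carm1 than in NIC-Prmt6. Srsf10, a splicing repressor once dephosphorylated, had 2172, 1844 and 1933 in NIC-Carm1 and 2607 and 2457 in NIC-Prmt6, with a log2 fold change of -0.36 ± 0.10 (adjusted p = 0.0221). Hnrnpdl, a paralog of the AU-rich element binding Hnrnpd, had 4310.3, 3704 and 3736 in NIC-Prmt1, 3349, 3072 and 3046 in NIC-Carm1 and 4068 and 4080.3 in NIC-Prmt6. Every call of these 2 comparisons ended with averaging, where the lowest adjusted p was 0.0513.

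**Figure D4:**
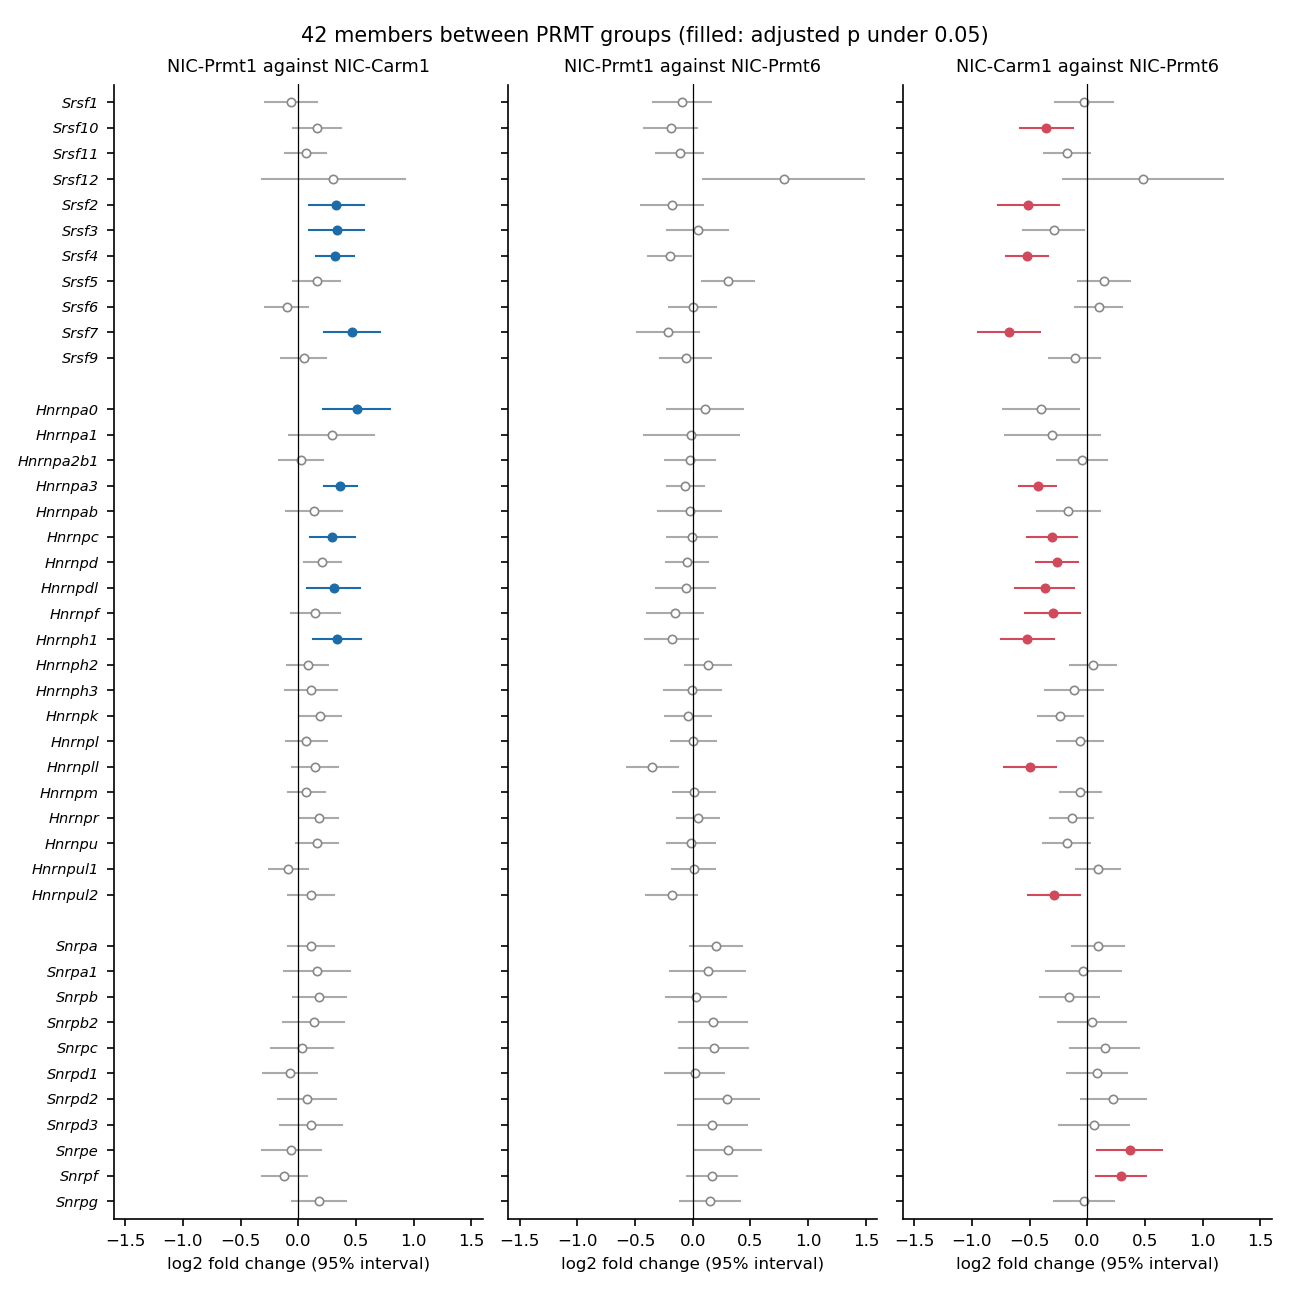
Log2 fold change (horizontal axis) of each of the 42 members in NIC-Prmt1 against NIC-Carm1, NIC-Prmt1 against NIC-Prmt6 and NIC-Carm1 against NIC-Prmt6, with its 95% interval from limma; filled dots have an adjusted p under 0.05. The filled dots of the left panel are all on the high side, the middle panel has none, and the filled dots of the right panel are on the low side except Snrpe and Snrpf.

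Promoter sequence was set beside the expression values for 4 genes: Hnrnpc, Srsf2 and Srsf7, which fell in NIC-Carm1, and Srsf5, which rose there. RefSeq held a promoter for 38 of the 42 members (GRCm38.p6), and a window of 200 bases before the most upstream start was searched on both strands for 7 motifs. The GC box (GGGCGG, bound by Sp factors) occurred in 24 members, 63.2%, against 31.3% of 27025 promoters of that window length. The CCAAT box (CCAAT, bound by NF-Y) occurred in 17, 44.7%, against 30.1%, and the ETS core (CCGGAA) in 14, 36.8%, against 2963 of the 27025 promoters. The core of the cAMP response element (TGACGT) occurred in 8, 21.1%, against 6.0%. The E-box (CACGTG) occurred in 3 members, 7.9%, against 5.3%. The TATA motif (TATAAA) was found in 3, 7.9%, against 10.6% of promoters, and the NRF1 motif (GCGCATGC) in 1, 2.6%, against 2.2%. Median GC content was 61.2% in the members and 53.0% in all promoters, and GC-rich motifs are met more often in GC-rich sequence. The GC box was found in 10 of the 11 Srsf genes, 11 of 18 Hnrnp genes and 3 of 9 Snrp genes.

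The 4 windows are printed below 5′ to 3′ on the strand of the gene, without bases inside the GENCODE gene span, and capitals mark matches to the motifs above in either orientation, with neighbouring or overlapping matches run together. A match describes the letters and does not show that a factor binds.
Hnrnpc, chr14:52104029-52104221, minus strand: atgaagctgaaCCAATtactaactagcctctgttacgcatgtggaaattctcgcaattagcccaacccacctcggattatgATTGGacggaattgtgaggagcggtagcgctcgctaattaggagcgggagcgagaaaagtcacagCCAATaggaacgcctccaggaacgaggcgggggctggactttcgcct
Srsf2, chr11:116853095-116853294, minus strand: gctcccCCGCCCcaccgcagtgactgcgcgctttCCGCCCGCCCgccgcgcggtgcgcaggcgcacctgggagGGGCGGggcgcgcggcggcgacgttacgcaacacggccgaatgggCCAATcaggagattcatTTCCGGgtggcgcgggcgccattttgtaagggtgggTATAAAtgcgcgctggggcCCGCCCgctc
Srsf7, chr17:80207308-80207505, minus strand: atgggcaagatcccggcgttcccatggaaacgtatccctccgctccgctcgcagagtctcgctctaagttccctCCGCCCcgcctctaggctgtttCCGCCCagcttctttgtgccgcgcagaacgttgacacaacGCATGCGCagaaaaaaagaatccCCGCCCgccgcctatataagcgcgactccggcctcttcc
Srsf5, chr12:80945299-80945498, plus strand: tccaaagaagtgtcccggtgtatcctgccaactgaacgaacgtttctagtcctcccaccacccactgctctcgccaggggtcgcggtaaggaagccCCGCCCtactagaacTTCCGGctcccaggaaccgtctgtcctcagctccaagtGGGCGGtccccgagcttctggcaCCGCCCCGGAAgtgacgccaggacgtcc
Hnrnpc held 3 CCAAT boxes and no GC box. Srsf2 held 5 GC boxes, 1 CCAAT box, 1 ETS core and 1 TATA box. Srsf7 held 3 GC boxes and the NRF1 motif. Srsf5 held 3 GC boxes and 2 ETS cores. The 3 genes that fell thus share no motif of these 7 that Srsf5 lacks.

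Other splicing genes also changed in both directions. Of 107 other splicing genes in 6 lists, 8 rose and 15 fell in NIC-Prmt1 (21.5%), 3 rose and 16 fell in NIC-Carm1 (17.8%), and 12 rose and 21 fell in NIC-Prmt6 (30.8%), set against the 29.6%, 16.0% and 36.8% of all genes. Among 16 SR-related proteins, 3 fell in NIC-Prmt1, 3 in NIC-Carm1, and 1 fell and 1 rose in NIC-Prmt6. Tra2a, a Transformer-2 homologue that binds GAA-rich enhancers, had 2538, 2619 and 2608 in NIC-Prmt1, 2359.7, 2173 and 2374 in NIC-Carm1, 2972 and 2955 in NIC-Prmt6, against 5798 and 3822 in NIC. All 8 PRMT libraries lay below NIC, with log2 fold changes of -0.86 ± 0.14 (adjusted p = 0.00305) in NIC-Prmt1, -1.03 ± 0.14 (adjusted p = 0.00262) in NIC-Carm1 and -0.67 ± 0.16 (adjusted p = 0.00951) in NIC-Prmt6. Its paralog Tra2b fell in NIC-Prmt1 (-0.34 ± 0.10, adjusted p = 0.0337) and NIC-Carm1 (-0.79 ± 0.10, adjusted p = 0.00205). Of the 9 SR protein kinases, 1 rose and 2 fell in NIC-Prmt1, 1 rose and 1 fell in NIC-Carm1, and 2 rose and 1 fell in NIC-Prmt6. Clk4 fell in all 3, with -0.47 ± 0.08 (adjusted p = 0.00414) in NIC-Prmt1, -0.29 ± 0.08 (adjusted p = 0.0418) in NIC-Carm1 and -0.38 ± 0.09 (adjusted p = 0.0111) in NIC-Prmt6, while Prpf4b rose in NIC-Carm1 (0.37 ± 0.09, adjusted p = 0.0268) and NIC-Prmt6 (0.39 ± 0.10, adjusted p = 0.0139) and Dyrk1a in NIC-Prmt6 (0.39 ± 0.10, adjusted p = 0.0135). With averaging, 2 of the 107 rose and 6 fell in NIC-Prmt1 (7.48%), 1 rose and 2 fell in NIC-Carm1 (2.80%), and 3 rose and 1 fell in NIC-Prmt6 (3.74%), beside the 16.6%, 2.17% and 10.6% of all genes. Of the calls named in this paragraph, only Tra2a and Clk4 in NIC-Prmt1 and Tra2a and Tra2b in NIC-Carm1 passed with averaging. The lists were not recounted under the other alternatives.

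The SMN complex and the methylosome act directly on the Sm proteins. Of their 14 genes, 5 fell in NIC-Prmt6, 1 in NIC-Carm1, and 2 fell and 1 rose in NIC-Prmt1. Of all genes tested, 36.8% were called in NIC-Prmt6, 16.0% in NIC-Carm1 and 29.6% in NIC-Prmt1. Whether this list or those below differ from other genes was not tested. The calls in this paragraph are from the main fit. With averaging, only those of Wdr77, Riok1 and Prpf3 in NIC-Prmt1 passed. Wdr77 (MEP50), the partner of PRMT5 in the methylosome, had 1041, 1043 and 1009.7 in NIC-Prmt1, 1382, 1134 and 1258 in NIC-Carm1, 1179 and 1074 in NIC-Prmt6, against 1509 and 1474 in NIC, and fell in NIC-Prmt1 (-0.53 ± 0.10, adjusted p = 0.00483) and NIC-Prmt6 (-0.41 ± 0.11, adjusted p = 0.0166). Riok1, an adaptor of PRMT5, fell in NIC-Prmt1 (-0.50 ± 0.11, adjusted p = 0.00952), NIC-Carm1 (-0.64 ± 0.11, adjusted p = 0.00593) and NIC-Prmt6 (-0.47 ± 0.12, adjusted p = 0.0133). In NIC-Prmt6 the list's smallest adjusted p belonged to Gemin7, an SMN complex subunit (-0.58 ± 0.12, adjusted p = 0.00475), and Prmt5 itself was among the 5 (-0.31 ± 0.10, adjusted p = 0.0391). Of 21 other U snRNP proteins, 6 fell and 1 rose in NIC-Prmt6, led by Snrnp25 of the minor spliceosome (-1.19 ± 0.27, adjusted p = 0.00760) and Lsm4 of the U6 Lsm ring (-0.58 ± 0.14, adjusted p = 0.00959), 2 fell in NIC-Prmt1, Prpf3 of the U4/U6 snRNP (-0.75 ± 0.14, adjusted p = 0.00462) and Snrnp25 (-0.87 ± 0.25, adjusted p = 0.0249), and 1 in NIC-Carm1, again Prpf3 (-0.62 ± 0.14, adjusted p = 0.0168). Of 15 U2 and 3′ splice site factors, 4 fell in NIC-Carm1, led by Sf3b4 (-0.48 ± 0.12, adjusted p = 0.0214), an SF3b subunit, and 3 fell in NIC-Prmt6, led by Sf3b6 (-0.46 ± 0.10, adjusted p = 0.00676).

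The 32 other regulators of alternative splicing changed in both directions: 6 rose and 6 fell in NIC-Prmt1, 2 rose and 6 fell in NIC-Carm1, and 8 rose and 5 fell in NIC-Prmt6. The shares over all genes tested were 29.6%, 16.0% and 36.8% in the same order, and whether this list differs was not tested. The calls named here are from the main fit. Those of Rbm39, and of Tia1 in NIC-Prmt1 and NIC-Prmt6, did not pass with averaging. Nova2, best known from neurons and endothelium, rose in NIC-Prmt1 (1.26 ± 0.21, adjusted p = 0.00311) and NIC-Prmt6 (1.82 ± 0.23, adjusted p = 5.09e-04), as did the endothelial markers given above. Celf2 rose in NIC-Prmt6 (0.89 ± 0.13, adjusted p = 0.00105). Esrp1, the splicing regulator of epithelial cells, fell in NIC-Prmt1 (-0.49 ± 0.10, adjusted p = 0.00858) and NIC-Prmt6 (-0.70 ± 0.11, adjusted p = 0.00165). The luminal marker sum given above was lower in both groups, and in NIC-Carm1 as well. In NIC-Carm1, however, Esrp1 was not lower, at 5872, 5412 and 5429 normalised reads against 5364 and 5229 in NIC. Tia1, which binds uridine-rich introns beside the 5′ splice site, rose in NIC-Prmt1 (0.47 ± 0.12, adjusted p = 0.0186), NIC-Carm1 (0.87 ± 0.12, adjusted p = 0.00267) and NIC-Prmt6 (0.44 ± 0.13, adjusted p = 0.0272). Rbm39, an SR-like cofactor, fell in NIC-Prmt1 (-0.31 ± 0.09, adjusted p = 0.0279) and NIC-Carm1 (-0.46 ± 0.09, adjusted p = 0.0103), with -0.27 ± 0.10 (adjusted p = 0.0530) in NIC-Prmt6. The part of the cell markers in these values was not tested.

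19 of the 42 members passed in none of the 6 comparisons: Hnrnpa1, Hnrnpa2b1, Hnrnpab, Hnrnpl, Hnrnpm, Hnrnpr, Hnrnpu, Hnrnpul1, Snrpa, Snrpa1, Snrpb, Snrpb2, Snrpd1, Snrpd3, Snrpg, Srsf1, Srsf6, Srsf9 and Srsf12. How many of all genes passed in none of the 6 was not counted. For some of these 19 members the intervals of the main fit were narrow. Those intervals count the nearly identical libraries as separate samples, and can be too narrow if the pairs are technical repeats. Hnrnpm, whose libraries ran from 4352 to 5009 normalised reads, had 95% intervals of -0.21 to 0.15 in NIC-Prmt1, -0.27 to 0.09 in NIC-Carm1 and -0.23 to 0.16 in NIC-Prmt6 on the log2 scale. Hnrnpl, a CA-repeat binder, had -0.17 to 0.23, -0.24 to 0.16 and -0.19 to 0.25 in the same order. Srsf12, with few reads, had much wider ones of -0.20 to 1.19, -0.51 to 0.88 and -1.06 to 0.46. The intervals of Snrpb, Snrpd1, Hnrnpab and Srsf9 in NIC-Carm1 left out 0 without passing after adjustment (-0.64 to -0.12, -0.52 to -0.00, -0.59 to -0.05 and -0.46 to -0.02), so a p above the threshold does not show equal levels.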

How the data were processed

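Poly-A RNA of mammary epithelial cells was sequenced in 10 libraries with a TruSeq v2 kit, per the labels' protocols. The submitters' processing notes name mm10 as the genome build and TopHat2 2.0.10, HTSeq 0.6.0 and DESeq 1.18.0 as tools. No annotation, strand setting or filter is named in the sources used here. The deposited values are a normalised signal, the authors' read count per gene divided by a size factor per library: 100% of the values in each column were whole multiples of the column's step within 0.01, and whole reads were recovered from them. Every column was mapped to a sample by its name.

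Differences were tested with limma-trend (limma 3.58.1, R 4.3.3) on log2(value + 1) for the 15694 genes that reached a value of 10 in 2 or more libraries, with 4 group means in 1 fit (6 residual degrees of freedom) and Benjamini-Hochberg adjustment over all genes tested. Fold changes are thus on the log2(value + 1) scale and are given ± standard error; adjusted p-values of single genes come from limma. Alternatives were edgeR 4.0.16 and DESeq2 1.42.0 on recovered reads, TMM and upper-quartile rescaling, pseudocounts of 0.5 and 5, a filter of at least 50 and no filter, the 2 compared groups alone, a replicate block, averaging of nearly identical libraries, and leaving out each library. The fit was tested on simulated data. The labels do not say that equal replicate numbers share an animal or a day, so the main fit does not pair libraries.

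The members and gene lists were chosen with earlier results of these data known. Named members were the 8 largest rises and 8 largest falls that passed in each comparison with NIC, the 3 most abundant of each family, those passing in all 3 comparisons with NIC, and the 4 largest rises and falls between PRMT groups; of each other splicing list, the 2 with the smallest adjusted p that passed. Hnrnpf, Snrpg, Srsf10, Hnrnpdl, Prmt5, Hnrnpm, Hnrnpl and the remaining members were named after their values were seen. Gene positions, exon lengths and transcripts are from GENCODE M21 (GRCm38) and promoters from RefSeq (GRCm38.p6). CPM were computed from recovered reads; the lowest count of a member in a library was 13 reads.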

Additional observations from a re-analysis of the deposited data

How the results depend on the processing

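Over the 6 comparisons 53 calls of members were made, and each was recomputed under 21 alternatives. Of these 1113 values, 858 stayed called, 255 were no longer called and none changed sign; 6 calls held under every alternative and 7 with nearly identical libraries averaged. Averaging gave 4, 1 and 2 members called in NIC-Prmt1, NIC-Carm1 and NIC-Prmt6 against NIC, and 0 in NIC-Prmt1 against NIC-Carm1 and in NIC-Carm1 against NIC-Prmt6. Fitting the 2 compared groups alone gave 4, 7 and 5 in NIC-Prmt1 against NIC, NIC-Carm1 against NIC and NIC-Prmt1 against NIC-Carm1. Upper-quartile rescaling gave 9 in NIC-Carm1 against NIC-Prmt6, and DESeq2 gave 2 in NIC-Prmt1 against NIC-Prmt6. Leaving out 1 library at a time gave 4 to 10, 1 to 15 and 4 to 13 members against NIC in NIC-Prmt1, NIC-Carm1 and NIC-Prmt6, 2 to 9 in NIC-Prmt1 against NIC-Carm1, 0 to 2 in NIC-Prmt1 against NIC-Prmt6 and 5 to 16 in NIC-Carm1 against NIC-Prmt6. With the replicate number as a block, 7, 7 and 10 members were called against NIC in the same order, 9 in NIC-Prmt1 against NIC-Carm1, 0 in NIC-Prmt1 against NIC-Prmt6 and 9 in NIC-Carm1 against NIC-Prmt6. Deviations from group means of 13 same-numbered pairs correlated at -0.132 to 0.100, against -0.157 to 0.171 for 24 other pairs. In a group of 2 libraries the deviations mirror each other, so these ranges cannot show whether equal numbers pair libraries. Counts over all genes also moved with averaging and with leaving out libraries. The cause of these shifts was not tested, and averaging and leaving out also leave fewer samples. The lowest member count belonged to Srsf12; no test of depth was run. Groups of 2 or 3 libraries, nearly identical pairs, shared pseudogene sequence and unstranded counting set further limits.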

Other observations

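Several members lie close together on a chromosome, and their values can be read side by side; no relation was tested. Hnrnpll and Srsf7 lie 137.7 kb apart on chromosome 17, and both fell in NIC-Carm1 against NIC (log2 fold change -0.50 ± 0.10 and -0.59 ± 0.12, limma adjusted p = 0.0108 and 0.0126). Hnrnpa0 and Hnrnpk lie 262.6 kb apart on chromosome 13, and both fell there too (-0.56 ± 0.15 and -0.34 ± 0.09, limma adjusted p = 0.0291 and 0.0286). Hnrnpd and its paralog Hnrnpdl lie 54.6 kb apart on chromosome 5, and both were lower in NIC-Carm1 than in NIC-Prmt6 (-0.26 ± 0.08 and -0.37 ± 0.12, limma adjusted p = 0.0307 and 0.0290). Srsf10 and Hnrnpr lie 441.0 kb apart on chromosome 4; Srsf10 fell in NIC-Carm1 against NIC-Prmt6, and Hnrnpr had -0.14 ± 0.08 (limma adjusted p = 0.214). None of these calls passed with the nearly identical libraries averaged.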
